A study of Mus musculus with 2 samples.

Results

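The 10 genes described here belong to the bone morphogenetic protein (BMP) pathway: the ligands Bmp2 and Bmp4, the receptor Bmpr1a, the signal transducers Smad1 and Smad5, the inhibitory Smad7, and the target genes Id1, Id2, Id3 and Id4. Their probe sets were those whose platform annotation gives exactly 1 gene symbol, equal to 1 of these names, which gave 10 of the 18193 genes so named and 24 of the 45101 probe sets on the array. Of these, 16 read the ligands, the receptor and the Smads and 8 read the Id genes, and all 10 genes had at least 1 probe set that passed the filter on dim signal. The samples were embryoid bodies, cell aggregates in which embryonic stem cells start to differentiate, formed in hanging drops from CGR8 mouse embryonic stem cells of strain 129. Before aggregation the cells of both groups grew without feeder cells, in medium with serum and leukemia inhibitory factor. The control group was kept in differentiation medium alone, and the FGF10 group was given recombinant FGF10, a secreted fibroblast growth factor, at 100 ng/ml. The labels place both samples at day 2, while the design text says that embryoid bodies aged 2 days were treated and sampled 24 h later. CGR8 is a single cell line, and an embryoid body holds cells of several kinds, so a signal is an average over them.

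BMP ligands are secreted dimers that bring type I receptors such as Bmpr1a together with type II receptors. The active receptor phosphorylates Smad1 and Smad5, which enter the nucleus with Smad4 and switch on target genes, the Id genes prominent among them. Id proteins have a helix-loop-helix domain but no DNA-binding region, and by pairing with E proteins they keep other helix-loop-helix factors off DNA. In the mouse embryo BMP4 is needed for mesoderm to form, and in mouse embryonic stem cells BMP acting through Id genes helps, with leukemia inhibitory factor, to hold back differentiation.

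There was 1 array per group, so nothing here has a replicate check or a p-value, and every difference describes this pair of arrays. Each value is a MAS5 signal, a linear measure of brightness scaled to a common level on each array. A log2 ratio sets the signal with FGF10 against that of the control, with the median over probe sets that passed the filter set to 0, and a positive value means a higher signal with FGF10. A probe set passed if its mean signal over the 2 arrays was at least 76.35, the midpoint of the array without its control probe sets. Each gene is represented by the brightest probe set that passed, which gave 11122 genes. The only measure of error is the spread between the 2 brightest probe sets of a gene, a technical SD of 0.267 on the log2 scale over 5213 genes, which says nothing of variation between cultures. The pluripotency genes Pou5f1, Nanog and Sox2 had control signals of 8157.8, 6616.1 and 5812.7, far above the filter, as the label of embryonic stem cell aggregates has it. None of 6 trophoblast markers passed the filter (Prl3d1 had no named probe set), and 2 of 6 fibroblast markers did, Col1a2 and Thy1.

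On brightest probe sets, the Id targets were level or lower on the FGF10 array, and the 6 ligand, receptor and Smad genes were level or higher. These 6 are called upstream genes here, although Smad7 is itself induced by BMP signals. Level means a log2 ratio within the technical SD of 0.267. Id1 and Id2 were at least 2-fold lower on the FGF10 array, Id4 was lower by an unknown amount at dim signals, and Id3 was level, whereas Bmp2 was 2.26-fold higher and Smad1 1.71-fold higher. Bmp4 and Smad5 were higher by less than 1.5-fold, and Bmpr1a and Smad7 were level. Other probe sets of Bmpr1a and Smad7 that passed the filter were as low as -0.26 and -0.30. None of the ligand, receptor and Smad genes was 1.5-fold lower, a count near the 4.86% of all genes that were. At least 2-fold lower were 2 of the 4 Id genes, or 3 with Id4, against 1.29% of all genes. Id4 passed the signal filter through its control signal alone, and it was short of 2-fold with dim signals raised to the filter (-0.76), with no centring (-0.99), with an offset (-0.83) and on the mean or second brightest of its probe sets (-0.98 and -0.95). In the other direction, 1 of the 6 upstream genes was at least 2-fold higher, against 1.32% of all genes. The median log2 ratio was -1.05 over the Id genes and 0.49 over the 6 upstream genes, beside -0.027 over all genes, a difference of 1.55 between the groups. With dim signals raised, the Id median was -0.92. On brightest probe sets the groups crossed only at Id3, the highest Id gene (-0.012), and Smad7, the lowest upstream gene (-0.014), which were nearly equal. Over all probe sets that passed the filter they overlapped more, with the lowest upstream value at -0.30.

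**Figure D1:**
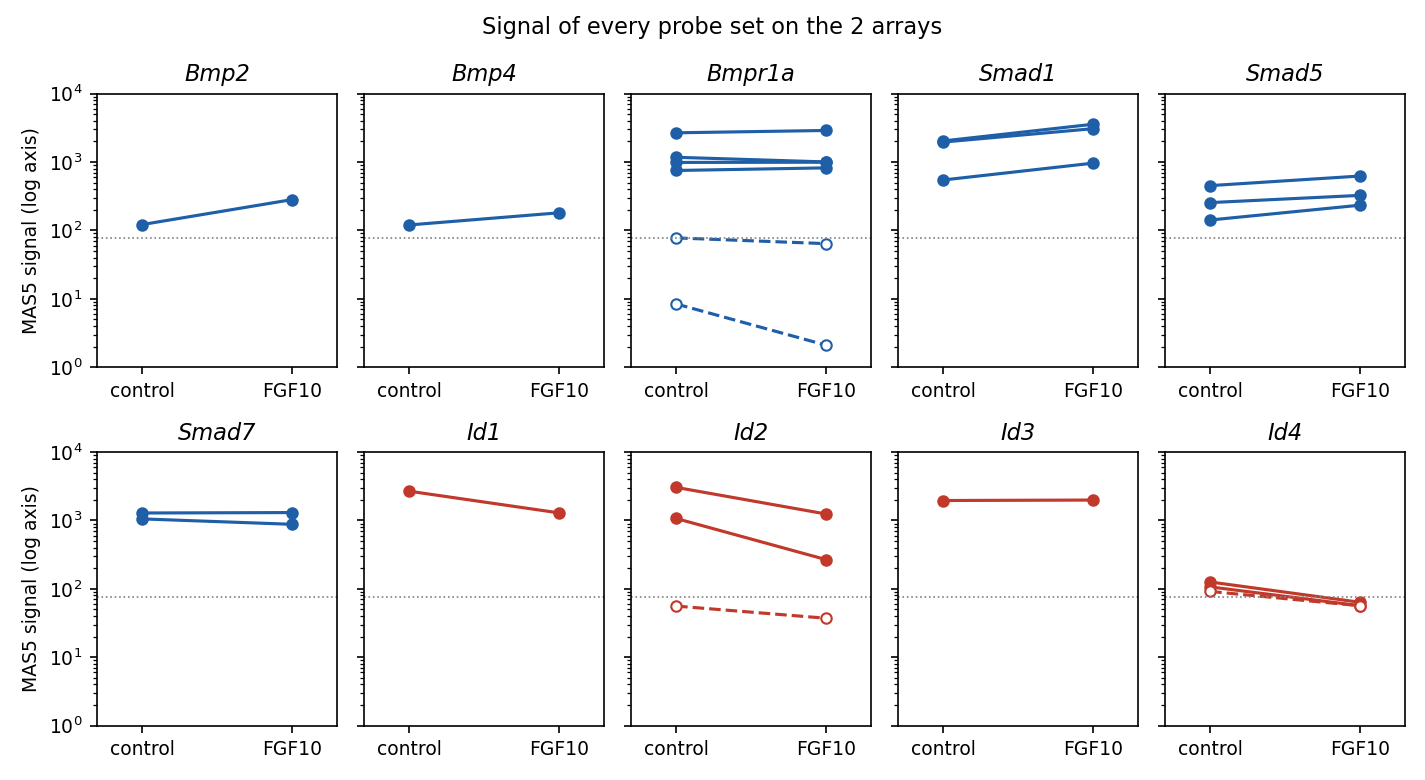
MAS5 signal (log axis) of all 24 probe sets on the control array and the FGF10 array, 1 panel per gene, with a line for each probe set. Blue marks ligands, receptor and Smads and red the Id targets, the dotted line is the filter at 76.35, and open points with broken lines are the 4 probe sets that did not pass it. Lines slope up for Bmp2, Bmp4, Smad1 and Smad5 and down for Id1, Id2 and Id4.

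Among the ligands, Bmp2 read 121.4 in control and 280.8 with FGF10 (log2 ratio 1.18). This ratio, from a single probe set, exceeded the technical SD of 0.326 found among genes of similar brightness, and 88 of 11122 genes had a ratio as high or higher. Bmp4, the ligand most tied to mesoderm formation in the mouse embryo, had signals of 119.8 and 180.3 (0.56, 1.47-fold), just short of 1.5-fold. Both ligands were thus higher with FGF10, each on 1 probe set and at signals not far above the filter. Bmp4 is the less certain, as the technical SD among genes of its brightness was 0.389. Of 556 genes in the same signal bin (1 of 20 bins), 7 were at or above Bmp2 and 51 at or above Bmp4.

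Bmpr1a, the type I receptor also called ALK3, differed little. Its brightest probe set read 2663.5 in control and 2881.5 with FGF10 (0.079), and the others that passed the filter were at -0.26, -0.023 and 0.093. The remaining 2 of its 6 probe sets were dim: one read 77.5 and 63.9, and the other, at 8.4 and 2.1, had a log2 ratio of -2.03 that falls wholly under the filter. With signals under 76.35 raised to that value those ratios became -0.056 and -0.034, so no bright probe set of the receptor was far from 0.

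Smad1 and Smad5 carry the BMP signal from the receptor to the nucleus, and both were higher with FGF10 on each of their probe sets. Smad1 read 2024.5 and 3549.6 on its brightest probe set (0.78), 1950.3 and 3059.9 on the next (0.62), and 544.3 and 958.6 on the dimmest (0.78). All 3 were at least 1.5-fold higher, as were 7.03% of all probe sets that passed the filter, and among the 556 genes of its signal bin, where the technical SD was 0.208, 1 other gene was as high as or higher than its brightest probe set. Smad5 read 450.3 and 621.7 (0.43), 254.3 and 324.2 (0.32), and 141.6 and 232.9 (0.68). The 3 Smad5 probe sets agree in sign, and only the dimmest was past 1.5-fold. In the signal bin of Smad5, 54 of 556 genes were at or above its brightest probe set, and the technical SD was 0.281. Smad5 thus stands out less than Smad1. At 1.5-fold, 2 of the 6 upstream genes were higher, Bmp2 and Smad1, against 5.41% of all genes.

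Smad7, an inhibitory Smad that is induced by TGF-beta and BMP signals and acts against their receptors, did not share the higher values of Smad1 and Smad5. Its probe sets read 1283.9 and 1302.3 (-0.014) and 1052.6 and 877.7 (-0.30). The brighter is of the _x_at type, whose probes may bind other transcripts, and without such probe sets Smad7 takes the value of -0.30. Either way it stayed within 1.5-fold.

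**Figure D2:**
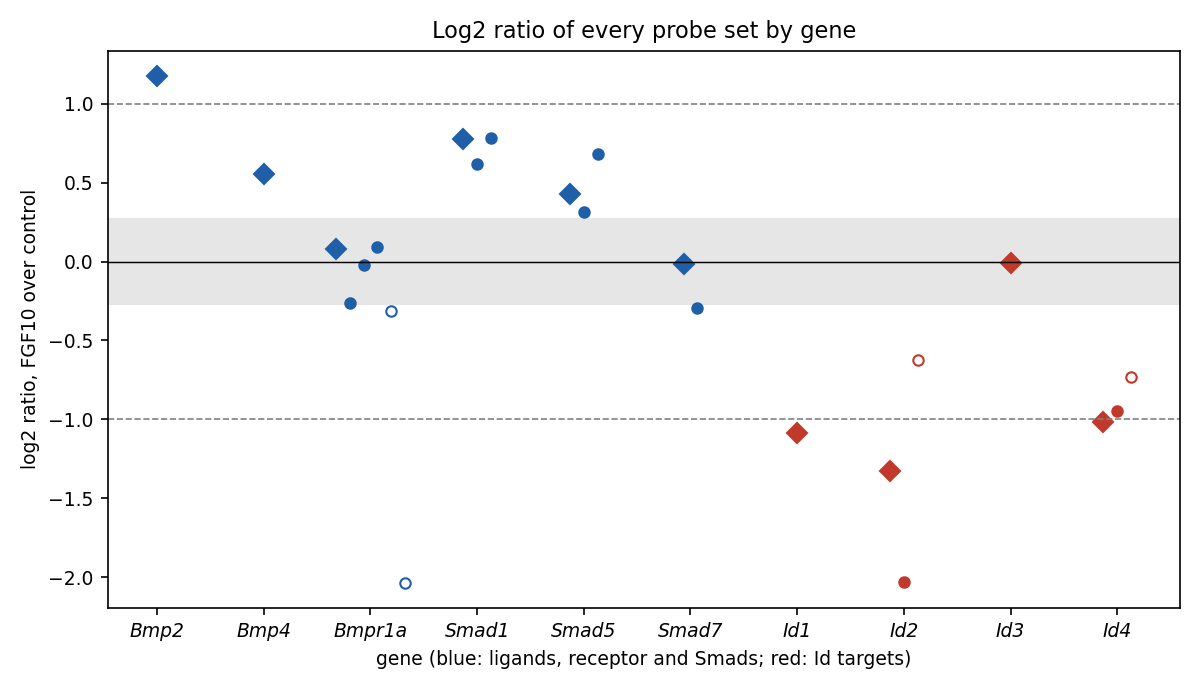
Log2 ratio of FGF10 over control for all 24 probe sets, by gene; diamonds are each gene's brightest probe set, circles the others and open symbols those under the signal filter. The grey band is plus and minus the technical SD of 0.267, and broken lines mark 2-fold. All probe sets of Smad1 and Smad5 lie above the band and all of Id1, Id2 and Id4 below it, and Id3 lies within it.

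The Id genes are shown with the promoter sequence of 3 of them, because members of this family differed from each other, with Id3 level and Id2 and Id4 below it. The windows run from 250 bases before to 50 after the start site, from RefSeq on build GRCm38.p6, and 7 of the 10 genes had such a window. Capitals mark each GGCGCC, a GC-rich element bound by Smad1 and Smad5 and the same on both strands, and each CAGAC or, on the other strand, GTCTG, the core of the Smad binding element. Id2 is at chr12:25096043-25096342 on the minus strand, Id4 at chr13:48260866-48261165 on the plus strand and Id3 at chr4:136143572-136143871 on the plus strand.
Id2: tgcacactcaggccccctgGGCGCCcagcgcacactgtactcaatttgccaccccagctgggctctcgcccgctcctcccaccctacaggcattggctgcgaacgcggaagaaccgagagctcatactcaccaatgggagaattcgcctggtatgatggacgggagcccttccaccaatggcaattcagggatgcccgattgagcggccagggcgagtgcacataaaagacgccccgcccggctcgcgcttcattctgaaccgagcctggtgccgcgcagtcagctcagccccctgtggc
Id4: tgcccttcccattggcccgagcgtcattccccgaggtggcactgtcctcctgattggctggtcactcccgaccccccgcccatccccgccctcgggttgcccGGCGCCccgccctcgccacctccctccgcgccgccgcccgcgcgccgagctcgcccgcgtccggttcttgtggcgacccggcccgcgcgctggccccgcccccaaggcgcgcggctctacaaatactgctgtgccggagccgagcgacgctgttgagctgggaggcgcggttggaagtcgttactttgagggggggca
Id3: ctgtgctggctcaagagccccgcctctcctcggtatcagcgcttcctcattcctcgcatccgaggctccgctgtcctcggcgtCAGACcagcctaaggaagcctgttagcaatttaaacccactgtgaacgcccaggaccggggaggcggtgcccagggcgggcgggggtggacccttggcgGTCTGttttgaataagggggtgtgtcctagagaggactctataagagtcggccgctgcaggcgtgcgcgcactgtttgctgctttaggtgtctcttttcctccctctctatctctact

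The Id2 window holds 1 GGCGCC, from -231 to -226 relative to the start site, and the Id4 window 1, from -148 to -143. The Id3 window holds no GGCGCC and has CAGAC from -167 to -163 and GTCTG from -68 to -64, neither of which occurs in the Id2 or Id4 window. GGCGCC is found in 11.9% of all 32851 promoter windows of this length and CAGAC or GTCTG in 49.6%. Among the other members GGCGCC also occurs in the Bmpr1a window and at 1 site shared by 2 overlapping windows of the 3 of Smad5. The third Smad5 window has CAGAC from -21 to -17, while Smad1 and Bmp4 have neither motif. No window was at hand for Id1, Bmp2 and Smad7, so the motifs of Id1 could not be compared. These are letter matches in a short window and were not tested as binding sites. Sequence outside the windows was not searched, and a link between the motifs and the Id ratios was not tested.

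Id2 had the lowest value of the family. Its brightest probe set read 3039.9 in control and 1242.7 with FGF10 (-1.32, 2.51-fold lower). The next read 1067.4 and 267.9 (-2.03, 4.08-fold lower), and the dimmest, under the filter, 56 and 37.2 (-0.62). All 3 were lower with FGF10, and the bright pair, though alike in direction, differed in size by more than the technical SD of 0.223 in that signal range. Id2 was the lowest of the 556 genes of its signal bin, and 63 of all 11122 genes were as low or lower.

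Id1 is the Id gene most often used as a readout of BMP signalling. Its single probe set read 2673.6 in control and 1289.9 with FGF10 (-1.09, 2.12-fold lower). Id1 lies in the same signal bin as Id2, where 3 genes of 556 were at least 2-fold lower and only Id2 was lower than Id1. Ratios of that size were thus rare on these arrays at the brightness of Id1 and Id2.

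Id4, known for roles in neural progenitors and in spermatogonial stem cells, was dim. Its probe sets read 125.9 and 63.6 (-1.02), 106.7 and 56.7 (-0.95), and 91.6 and 56.6 (-0.73), the last having a mean under the filter. All 3 probe sets are lower with FGF10, but every FGF10 signal lay under 76.35, and signals that dim cannot be told from background here, which leaves the size of the difference unknown. Raised to 76.35, the same signals gave -0.76, -0.52 and -0.30. In its signal bin 4.14% of genes were at least 2-fold lower and the technical SD was 0.510, so Id4 stands out less from genes of its own brightness than Id1 and Id2 do.

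Id3 was the exception. Its probe set read 1954.2 and 1985.1 (-0.012), in the same signal bin as Id1 and Id2, with 306 of 556 genes as low or lower. A difference of 1.07 on the log2 scale separated it from Id1 and 1.31 from Id2, on 1 probe set each for Id3 and Id1. Of the 8 Id probe sets, 7 were at least 1.5-fold lower, against 18.3% of all probe sets on the array, but 4 of the 7 had an FGF10 signal under the filter. With such signals raised to 76.35, 4 of the 8 were at least 1.5-fold lower, the single one of Id1, the bright pair of Id2 and the brightest of Id4, against 2.08% of all probe sets. Among probe sets that passed the filter, 5 of 6 for Id genes were 1.5-fold lower, against 4.71%, and these include 2 of Id4 that passed through control. Over all probe sets, dim ones included, the median was -0.98 for the Id genes and 0.20 for the upstream genes.

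**Figure D3:**
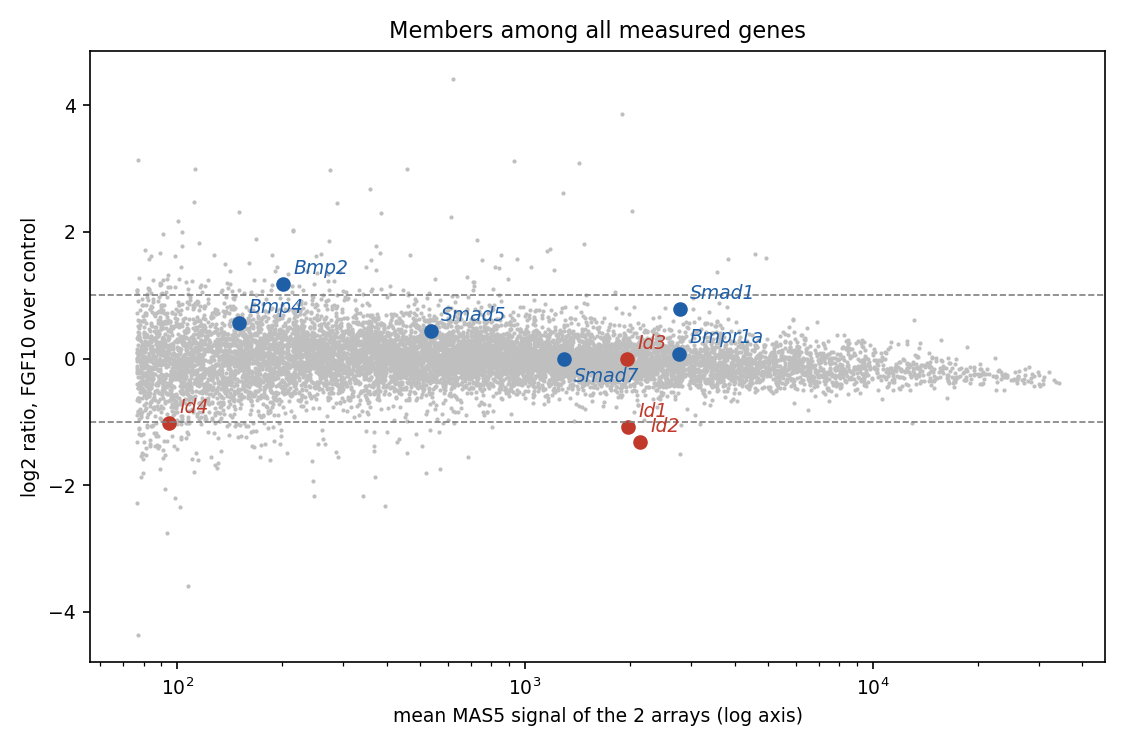
Log2 ratio of FGF10 over control against the mean MAS5 signal of the 2 arrays (log axis) for 11122 genes in grey, with the 10 members named in blue (ligands, receptor and Smads) and red (Id targets); broken lines mark 2-fold. Id1 and Id2 lie at the lower edge of the cloud at their brightness and Id3 in its middle, while Id4 lies where the cloud is wide.

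Markers of visceral endoderm, the outer extraembryonic layer of embryoid bodies, were lower beside the Id genes. All 7 measured of 7 had a log2 ratio under 0, as had 5951 of all 11122 genes. Of the 7, 5 were at least 1.5-fold lower (4.86% of all genes were), among them Apoa1 (-1.27), Rhox5 (-1.03), Hnf4a (-0.90, with another probe set at 0.15) and Cubn (-0.76). Afp was at -0.15, with another probe set at 0.18. Their summed signal was 12047.6 in control and 7223.6 with FGF10. Of 5 stem cell markers, Dppa5a (-1.03) and Zfp42 (-0.71) were lower, and Pou5f1 (0.073), Nanog (0.22) and Sox2 (-0.0026, named after its value was seen) were level. The part of either cell population in the Id values was not tested, and fewer cells of a type and less RNA per cell cannot be told apart in such samples.

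Several secreted antagonists of BMP were also higher on the FGF10 array. Of 14 antagonists listed, 6 passed the filter, and 4 of these were higher by 1.5-fold or more while 0 were lower, where 5.41% and 4.86% of all genes were. Their median was 0.90, but 0.62 over the 5 at or above the filter on both arrays, 0.32 over the 3 above the 75th percentile of signal, and 0.33 over all 13 antagonists with a probe set when no filter was applied. Fst, the gene of follistatin, which binds activin and BMPs, read 2414.3 and 7454.6 (1.59, and 1.49 on its other probe set). Chrd, the gene of chordin, a BMP-binding protein of the organizer, read 85.4 and 199 (1.19). Cer1, the gene of a secreted inhibitor of BMP and Nodal, read 60.6 and 490.7 (2.98, or 2.65 with the control signal raised to 76.35), and it passed the filter through its FGF10 signal alone. Bmper, another BMP-binding protein, was at 0.62. Nog, the gene of noggin, was under the filter at 45.8 and 43.6. Bambi, a membrane decoy receptor, read 692.5 and 672.9 (-0.076), within 1.5-fold.

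Other ligands and receptors gave little more. Of 12 other BMP-type ligands 2 passed the filter, Bmp6 (102.1 and 64.6, -0.69) and Bmp8b (90.8 and 67.6, -0.46), both with dim FGF10 signals. Of 9 other receptors and co-receptors 8 passed, with 0 at least 1.5-fold higher and 2 lower, against 5.41% and 4.86% of all genes. The lower ones were the type I receptor gene Bmpr1b (156.6 and 83.4, -0.94) and the endothelial co-receptor gene Eng (-0.70). The activin-type receptor genes Acvr2b (0.36) and Acvr1 (0.20), which also serve BMPs, were within 1.5-fold, and the median of the 8 was 0.037. All 9 measured of 10 other Smads and regulators lay within 1.5-fold on their brightest probe set, with a median of 0.12. Of all genes, 5.41% were at least 1.5-fold higher and 4.86% lower, so a count of 0 is near those shares. These regulators included the shared partner Smad4 (0.18), the repressor Skil (-0.18), the Smad-binding repressor Zeb2 (0.43, with another probe set at 0.85) and the ubiquitin ligase gene Smurf1 (0.31, with its other probe set at -0.55).

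The list of other known BMP targets had 13 genes and left out Smad7 (-0.014), Smad6 (0.17) and Bambi (-0.076), which were counted elsewhere. Of the 13, 5 passed the filter, with a median of -0.19, and the others were too dim or had no named probe set. Of these 5, 0 were at least 1.5-fold higher and 2 lower, against 5.41% and 4.86% of all genes. The lower ones were Gata2 (133.4 and 66.8, -1.03, or -0.84 with the FGF10 signal raised to 76.35) and the homeobox gene Tlx2 (225.9 and 136.5, -0.76). Gata2 passed the filter through its control signal alone. Tbx3 (-0.19) and Msx1 (0.52), a homeobox target in many tissues, were within 1.5-fold. The 5 did not all share the direction of Id1 and Id2: 4 were under 0, as were 5951 of all 11122 genes, and Msx1 was above. Msx1 was read by a probe set of the _s_at type. With _s_at and _x_at probe sets left out, Msx1 was lost and the median was -0.48.

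The E proteins and other helix-loop-helix factors, the class on which Id proteins act, had values above 0 in all 5 measured of 7, with a median of 0.55. Of all 11122 genes, 5171 were above 0. At least 1.5-fold higher were 2 of the 5, against 5.41% of all genes. Mesp1, a factor of nascent mesoderm, read 94.6 and 621.2 (2.68), and Hes1, a Notch target, 505.2 and 959.4 (0.89). The E-protein genes Tcf4 (714.8 and 1072.2, 0.55) and Tcf12 (3019.3 and 4327.3, 0.48) were within 1.5-fold on their brightest probe sets, and their probe sets ranged from 0.094 to 0.55 and from 0.18 to 1.92. In all these lists the members that passed the filter are a part of each list, so the counts and medians describe only them.

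**Figure D4:**
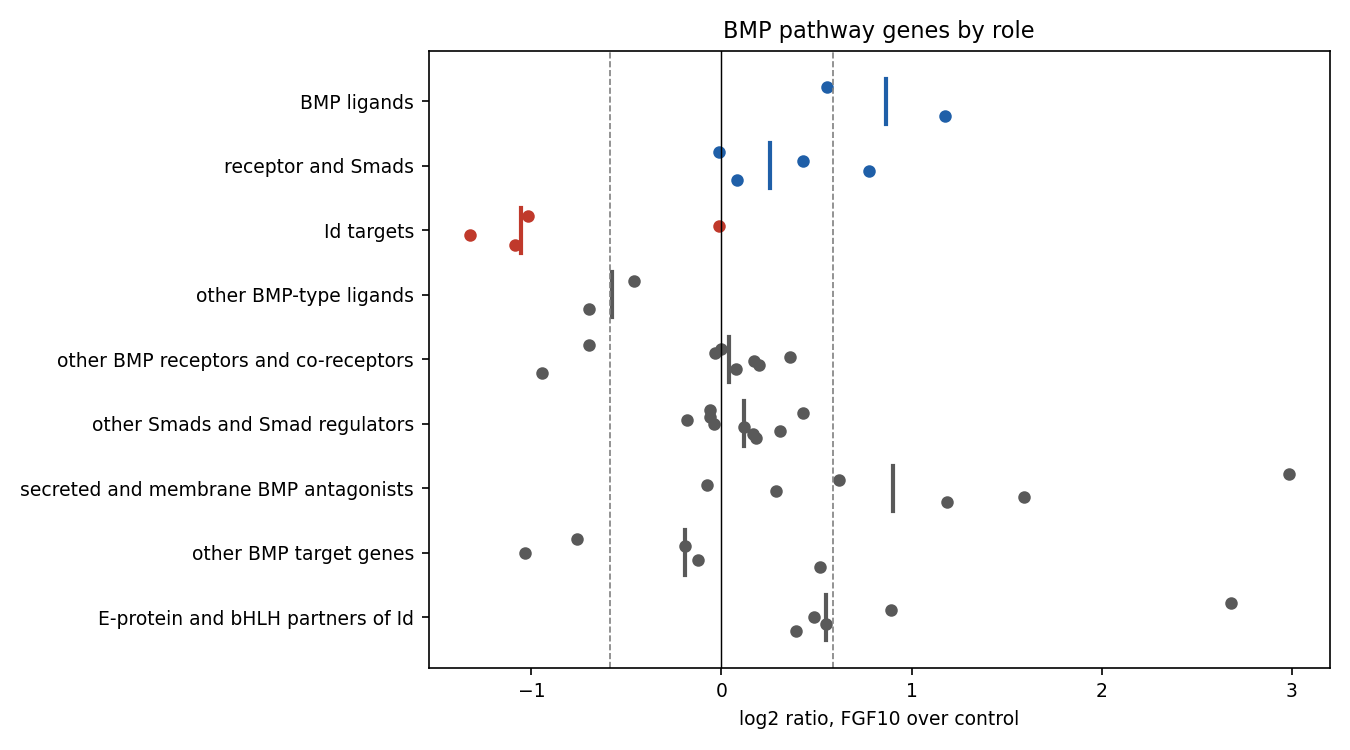
Log2 ratio of FGF10 over control for genes of the BMP pathway that passed the signal filter, grouped by role; each point is a gene at its brightest probe set, the vertical bar is the median of its group and broken lines mark 1.5-fold. The antagonists reach 2.98 at Cer1, and 3 of the 4 Id targets lie below every other gene drawn except Gata2.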

How the data were processed

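Total RNA of 1 control and 1 FGF10 sample was labelled with biotin and hybridised to 1 Affymetrix array each; groups come from the sample titles. The deposited values are MAS5 intensity (signal), not logged, made with MAS5 per the submitters' processing notes, with version and settings not given in the sources used here. Each column's mean without its lowest and highest 2% is 500.003, as scaling to a common target leaves. A ratio is therefore relative to the rest of its array. Of 45101 probe sets 64 were chip controls, and 34945 had 1 gene, 932 several and 9160 none in the platform annotation. All 10 members matched a RefSeq gene identifier, and 20 of their 24 probe sets passed the filter.

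Log2 ratios had no offset and were centred on 0.034. Differences were counted at 2-fold and 1.5-fold with no test; the number of arrays limits the precision. The technical SD is the SD of the difference between a gene's 2 brightest probe sets divided by the square root of 2. The procedure was tested on simulated data with equal noise at every signal and planted ratios larger than those of any member's brightest probe set. Extra noise at dim signals and smaller ratios were thus not covered. Members, lists and thresholds were chosen with earlier results of these data known. Named were all members and, of each other list, up to 4 measured genes with the largest absolute ratio. Sox2, Afp, Nog, Bambi, Smad6 and genes under the filter were named outside that rule. Alternatives covered centring, normalization, offset, filter, choice of probe set, dim signals and threshold. Python 3.11.15, pandas 2.3.3 and statsmodels 0.14.6 were used.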

Additional observations from a re-analysis of the deposited data

How the results depend on the processing

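Over 11 alternative ways of processing, Id1 ran from -1.09 to -1.05, Id2 from -2.03 to -1.29, Smad1 from 0.62 to 0.84 and Smad5 from 0.32 to 0.48, while Bmp2 ran from 1.05 to 1.21 over 10 alternatives that measured it. Id4 ran from -1.05 to -0.76 over 9 and was lost when both signals or a higher mean were required. Of 106 member values under alternatives, 101 stayed within the technical SD of the reported value and 96 kept its sign. Many of these could not change. Bmp2, Bmp4, Id1 and Id3 have 1 probe set each, with signals above the filter on both arrays. Choosing among probe sets or raising dim signals therefore returned their reported values, and the counts and their narrow ranges partly reflect this. The sign changes were those of Id3, Smad7 and Bmpr1a, whose reported values are near 0. The difference between the group medians ran from 1.19 to 1.58 over 13 alternatives. It was 1.19 over all probe sets of the members, dim ones included, and 1.36 with means in place of medians. With the filter at the 75th percentile, which leaves out Bmp2, Bmp4 and Id4 by its construction, it was 1.34, the upstream median was 0.29 and 0 upstream genes were 2-fold higher. At 1.5-fold, 2 upstream genes were higher. The antagonist median ran from 0.32 to 1.06, that of other targets from -0.48 to -0.16, that of other Smads and regulators from -0.013 to 0.16, and that of other BMP-type ligands from -0.60 to 0.44, turning its sign when no filter was applied. Id genes at least 2-fold lower numbered 2 or 3, depending on Id4. Id probe sets at least 1.5-fold lower numbered 7, and 4 with dim signals raised, an alternative chosen after seeing the data. No paired analysis was possible because each group has 1 array. With 1 array per group no replicate could be left out, and dim signals limit Id4, Bmp2 and Bmp4.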
